A study of Homo sapiens with 12 samples.

Results

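The transcripts of 10 integrin subunit genes were examined: ITGA4, ITGA5, ITGA6, ITGAL, ITGAM, ITGAV, ITGAX, ITGB1, ITGB2 and ITGB7. They were chosen by gene symbol, as subunits that bind extracellular matrix or serve leukocyte adhesion. All 10 were found among the 19447 gene symbols of the count table. Polyadenylated RNA was sequenced in 12 libraries, 3 per group, from K562, a human chronic myeloid leukemia cell line driven by BCR-ABL, and from K562/IM, a K562 subline made resistant to imatinib. The K562 group was untreated, and the K562+L group was K562 given 6 µM lycorine, a plant alkaloid. The K562/IM group was the resistant line, kept in 5 µM imatinib after stepwise selection and given no lycorine. The K562/IM+L group was that line with 6 µM lycorine. Both lines carry BCR-ABL, K562/IM is a single derived line, and nothing in the labels says whether the 3 libraries of a group came from separate cultures, so that p-values measure only the spread between these libraries. Resistance, selection and imatinib in the medium cannot be told apart between K562/IM and K562. The length of the lycorine exposure before sequencing was not given in the sources used here.

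Integrins are cell surface receptors made of 1 alpha and 1 beta chain, and a chain reaches the surface only after pairing. ITGB1 encodes the beta-1 chain, which pairs with many alpha chains to bind fibronectin, laminin and collagen. ITGB2 encodes beta-2, the common chain of the leukocyte integrins LFA-1 (with ITGAL), Mac-1 (with ITGAM) and a complement receptor (with ITGAX), which bind intercellular adhesion molecules and complement fragments. ITGB7 encodes beta-7, the partner of ITGA4 and ITGAE in lymphocyte homing to the gut. In chronic myeloid leukemia, adhesion through beta-1 integrins is known to anchor progenitors to marrow stroma.

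Total counts ran from 75093844 to 107344598 per library. Values are given as CPM, the count relative to the TMM-scaled total of its library. Low counts in the table piled up near multiples of 4, with 67.9% of values from 1 to 25 at such a multiple or 1 more, where an even spread would put 52% there. A sequenced fragment may therefore be worth about 4 counts, and a member with few counts rests on fewer fragments than its count. ABCB1, a drug efflux pump gene used as a check of the resistant line, stood at 21.9 to 25.9 CPM in K562/IM and at 1.68 to 1.86 in K562, but at only 0.488 to 1.06 in the group labelled K562/IM+L. The labels call this group G2 and the study's figures call it G6, so it is called the group labelled K562/IM+L below, and each direction drawn from it rests on that label. Summed over 14 erythroid markers, it also stood apart, with 34990 to 48384 CPM against 3016 to 8780 in the other 9 libraries.

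In every group, ITGB1, ITGA5 and ITGAV held nearly all of the signal of the 10 genes. Per kilobase of the longest coding transcript, ITGB1 led in K562 at 52.5 ± 6.84 CPM (SD, n = 3), followed by ITGA5, the alpha chain of the fibronectin receptor, at 19.8 ± 1.44 (SD, n = 3), and by ITGAV, the alpha chain of vitronectin receptors, at 6.33 ± 1.22 (SD, n = 3). The order ITGB1, ITGA5, ITGAV was the same in all 4 groups, with no overlap between neighbours among libraries. ITGB7 came next in K562 at 0.360 ± 0.132 (SD, n = 3) CPM per kilobase, above ITGA6, a laminin receptor chain, at 0.0627 ± 0.0252 (SD, n = 3). Below ITGB7 the libraries of genes next to each other in the order ITGA6, ITGAM, ITGB2, ITGAX overlapped in K562, although every ITGA6 and every ITGAM library was above every ITGAX library. ITGA4 and ITGAL had 0 counts in all 3 K562 libraries. A count of 0 allows up to 0.0386 CPM at 3 counts, or 0.154 CPM if a fragment is worth 4 counts, and these limits cover counting error only. In the K562/IM group ITGAM, at 0.636 ± 0.0818 (SD, n = 3) CPM per kilobase, took the rank below ITGAV, and ITGAX and ITGB7 overlapped behind it.

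**Figure D1:**
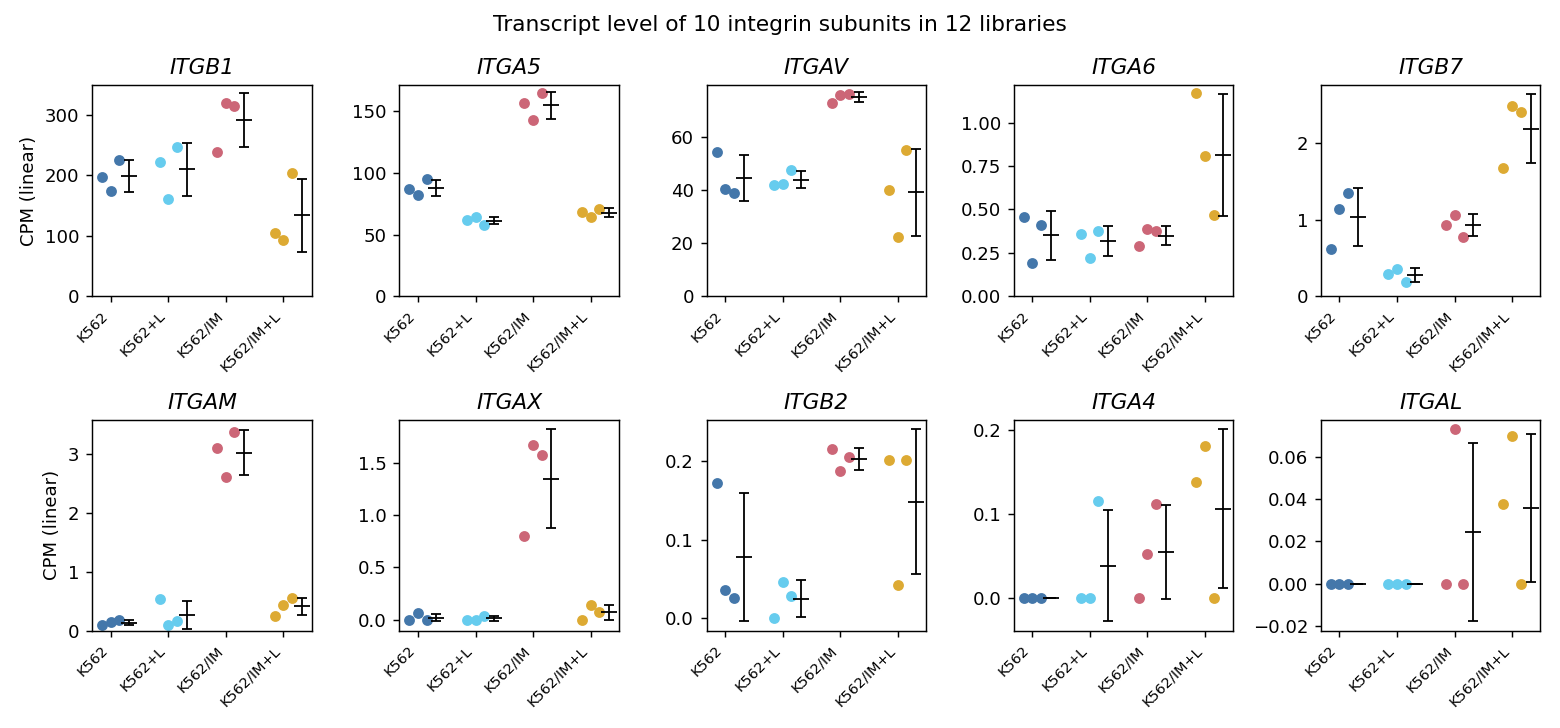
CPM of the 10 integrin subunit genes on linear axes, each with its own range, for the 3 libraries of each group (points) with the mean and SD (bars). ITGAM and ITGAX stand above all other libraries in K562/IM, ITGB7 is lowest in K562+L, and the means of ITGB1, ITGA5 and ITGAV are highest in K562/IM.

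Between K562/IM and K562, ITGA5, ITGAV, ITGB1, ITGAM and ITGAX were higher in the resistant line and no member passed the test in the other direction. Of the 8 members that passed the low-count filter, 5 had an adjusted p under 0.05, beside 57.1% of all 13406 genes tested, and 2 (ITGAM and ITGAX) also passed an absolute log2 fold change of 1, beside 19.1% of all genes. In this comparison both of these passed the filter only through the K562/IM libraries, where they are high, and so did ITGAX against the group labelled K562/IM+L. Against K562/IM, 9 members could be tested in the group labelled K562/IM+L. ITGA5, ITGB1, ITGAM and ITGAX fell and ITGB7 and ITGA6 rose past both thresholds, which is 6 of 9 members beside 28.5% of all 13727 genes, and ITGAV fell past the adjusted p alone, making 7 members beside 66.8% of all genes. Between K562+L and K562, ITGB7 fell past both thresholds and ITGA5 fell past the adjusted p alone. That is 1 of 6 members tested beside 6.39% of the 12927 genes, and 2 of 6 beside 37.3%. Between the group labelled K562/IM+L and K562, ITGAM and ITGB7 were higher past both thresholds and ITGA5 was lower past the adjusted p alone, that is 2 of 7 members beside 23.8% of the 13307 genes, and 3 of 7 beside 56% at the adjusted p alone. Here ITGAM passed the filter only through the group labelled K562/IM+L, where it is higher. The test of how the lycorine effect differed between the lines passed for ITGA5, ITGAV, ITGB1, ITGAM and ITGB7, which is 5 of 9 members beside 61.7% of 13995 genes. The comparisons share groups, so they are not independent of each other.

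**Figure D2:**
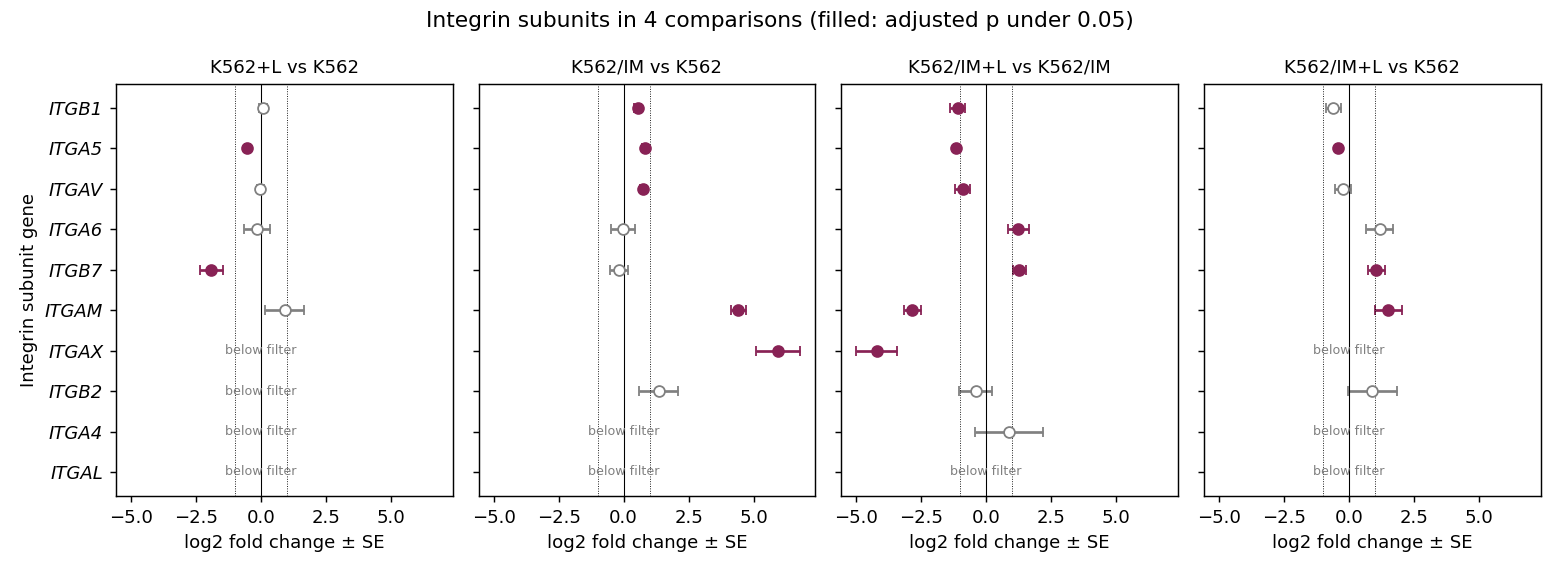
Log2 fold change with its SE for each integrin subunit gene in the 4 comparisons, from edgeR's quasi-likelihood fits. Filled points had an adjusted p under 0.05, dotted lines mark a log2 fold change of 1 in either direction, and genes under the low-count filter are marked as such. ITGAM and ITGAX have the largest changes between K562/IM and K562.

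ITGA5 lies on chromosome 12 of GRCh38 from 54395261 to 54419460 on the minus strand. It was lower with lycorine in both lines, as labelled, and higher in K562/IM than in K562. Its level was 87.0, 82.3 and 94.96 CPM in the K562 libraries and 61.9, 64.0 and 57.9 CPM in K562+L. Every K562+L library was below every K562 library. The log2 fold change was -0.52 (standard error, SE, 0.091, adjusted p = 0.0043), a change smaller than 2-fold. In K562/IM the libraries held 157, 143 and 165 CPM, all above K562, and the log2 fold change was 0.81 (SE 0.087, adjusted p = 0.000171). The group labelled K562/IM+L held 68.5, 63.9 and 70.8 CPM, below every K562 and every K562/IM library. Against K562/IM it differed by a log2 fold change of -1.17 (SE 0.083, adjusted p = 1.82e-05), and against K562 by -0.40 (SE 0.089, adjusted p = 0.00713). The latter did not pass under upper-quartile scaling, at -0.25 (adjusted p = 0.0505). The fall under lycorine was steeper in the resistant line as labelled, by -0.67 on the log2 scale (SE 0.11, adjusted p = 0.000325 for the difference between the effects), and by -0.44 (adjusted p = 0.00767) with the offset for transcript length that is described with ITGAV.

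ITGB1, on chromosome 10 from 32900319 to 33005792 on the minus strand, was the most abundant member. It stood at 197, 174 and 225 CPM in K562 and at 222, 160 and 246 CPM in K562+L. These groups overlapped, and the log2 fold change of 0.08 (SE 0.17, adjusted p = 0.747) did not pass the test. The K562/IM libraries held 239, 319 and 315 CPM. Each was above every K562 library, although the lowest of them lay close to the highest K562 library. The log2 fold change was 0.55 (SE 0.14, adjusted p = 0.0101), and it did not pass when the spread was estimated from all 12 libraries in 1 fit (adjusted p = 0.0968). The group labelled K562/IM+L held 105, 92.6 and 203 CPM. Replicate 3 of this group was within the range of the K562 libraries, whereas replicates 1 and 2 were the lowest of all 12. Against K562/IM the log2 fold change was -1.09 (SE 0.30, adjusted p = 0.0129), and it was -1.53 without replicate 3 of the group labelled K562/IM+L. It passed the test with any library left out, but its size was under 1 without replicate 1 (-0.95) or replicate 2 (-0.89) of the same group. Against K562 the log2 fold change of -0.60 (SE 0.29, adjusted p = 0.115) did not pass, but without replicate 3 it was -1.02 with an adjusted p of 0.00138. The lycorine effects of the lines differed by -1.20 on the log2 scale (SE 0.37, adjusted p = 0.0152).

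ITGAV, on chromosome 2 from 186590065 to 186680901 on the plus strand, has the longest transcript of the members, 7030 bases. It stood at 54.4, 40.3 and 38.9 CPM in K562 and at 41.8, 42.1 and 47.6 CPM in K562+L. These groups overlapped (log2 fold change -0.02, SE 0.14, adjusted p = 0.909). In K562/IM it was 72.6, 75.8 and 76.0 CPM, above every library of the other groups, with a log2 fold change of 0.75 against K562 (SE 0.13, adjusted p = 0.00191). The group labelled K562/IM+L was spread from 39.9 and 22.3 to 55.1 CPM, all below K562/IM. Its log2 fold change against K562/IM was -0.91 (SE 0.28, adjusted p = 0.0235), and that of the difference between the lycorine effects was also -0.91 (SE 0.35, adjusted p = 0.0383). The first of these no longer passed without replicate 1, 2 or 3 of K562/IM (adjusted p = 0.0503, 0.0599 and 0.064) or without replicate 1 of the group labelled K562/IM+L (0.0568). The second was lost without any of replicates 2 and 3 of K562 (adjusted p = 0.0809 and 0.0816), replicates 1, 2 and 3 of K562+L (0.0566, 0.0546 and 0.0779), replicates 1, 2 and 3 of K562/IM (0.0578, 0.0658 and 0.067) or replicate 1 of the group labelled K562/IM+L (0.0615).

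The libraries also differed in how much signal long transcripts held. The median log2 CPM of the genes with transcripts above 6821 bases minus that of genes up to 1532 bases was 0.67 to 1.39 in K562, 1.37 to 1.87 in K562+L and 1.56 to 1.65 in K562/IM. In the group labelled K562/IM+L it was 0.58, 0.44 and 1.15, with the highest value in replicate 3, the library with the highest ITGAV and ITGB1 of that group. With an offset for transcript length, added after the data were seen, the ITGAV log2 fold change between K562/IM and K562 became 0.38 (adjusted p = 0.00192), nearer to 0 than without it. The ITGAV value for the group labelled K562/IM+L against K562/IM became -0.52 (adjusted p = 0.0514) and the difference between the lycorine effects became -0.24 (adjusted p = 0.415), so that neither passed. Under the same offset ITGAV was lower in K562+L than in K562, by a log2 fold change of -0.32 (adjusted p = 0.0151). ITGB1 kept a log2 fold change of -1.02 (adjusted p = 0.012) and ITGA5 kept -1.01 (adjusted p = 4.38e-06) between the group labelled K562/IM+L and K562/IM. The part of this balance in the unadjusted values was not tested further.

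**Figure D3:**
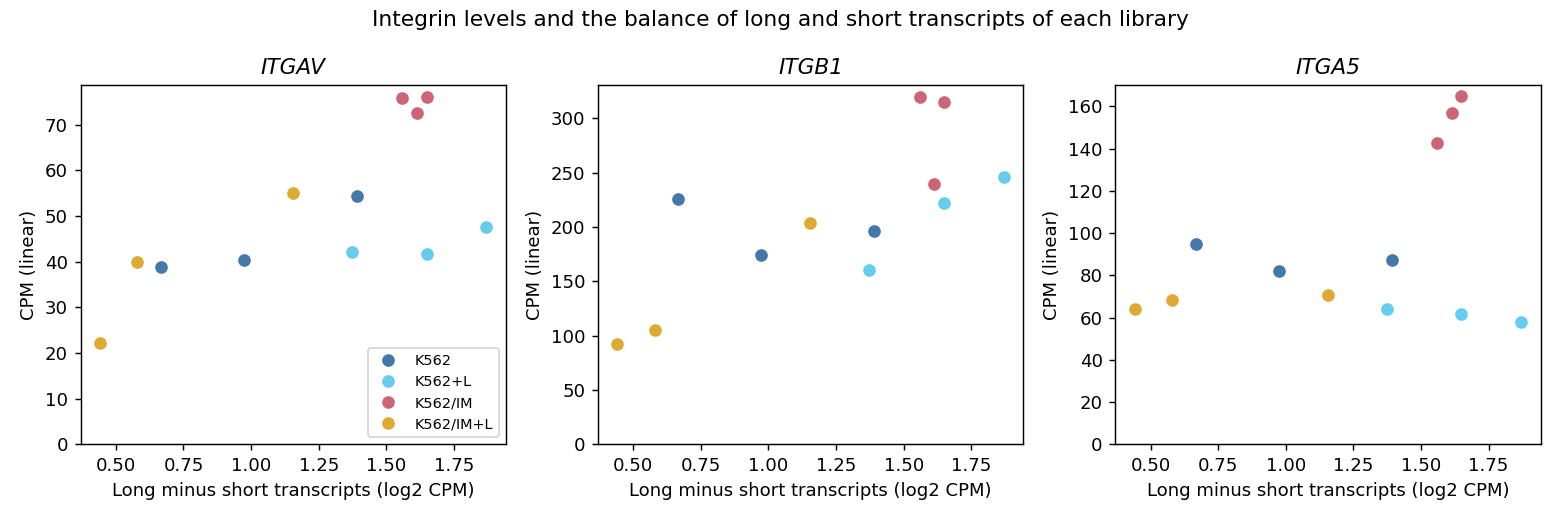
CPM of ITGAV, ITGB1 and ITGA5 (linear axes from 0) in each of the 12 libraries against the median log2 CPM of genes with transcripts above 6821 bases minus that of genes with transcripts up to 1532 bases. Within the group labelled K562/IM+L the order of ITGAV, ITGB1 and ITGA5 follows the balance, and the 3 K562/IM libraries lie close together at 1.56 to 1.65.

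ITGA5 took most of the alpha chain signal that could pair with beta-1. Among the 12 alpha genes that pair with it, ITGA5 held 74.9% ± 3.72 (SD, n = 3) of the summed CPM per kilobase in K562 and 67.5% ± 2.48 (SD, n = 3) in K562+L. Its share was 69.8% ± 1.42 (SD, n = 3) in K562/IM and 69.7% ± 6.01 (SD, n = 3) in the group labelled K562/IM+L, where it ran from 63.7% to 75.7%. ITGAV held 23.9% ± 3.92 of it in K562, 30.5% ± 2.64 in K562+L, 21.4% ± 1.32 in K562/IM and 24.5% ± 7.38 in the group labelled K562/IM+L (SD, n = 3 each). Every K562+L library, from 28.8%, was above the highest K562 library at 28.1%. The ITGAV level itself did not pass the test there, and ITGA5 fell. The shares were not adjusted for the balance of long and short transcripts. In K562 the ITGAV share was 28.1%, 23.3% and 20.3% at a balance of 1.39, 0.97 and 0.67. In K562+L it was 29.2%, 28.8% and 33.6% at 1.65, 1.37 and 1.87. The part of this balance in the shares was not tested. ITGAV can also pair with other beta chains. ITGA7, a laminin receptor chain named here after its values were seen, held 0.565% ± 0.295 in K562 and 8.23% ± 0.347 in K562/IM (SD, n = 3 each). The summed alpha chains came to 0.508 ± 0.0442 (SD, n = 3) of the ITGB1 level per kilobase in K562, 0.382 ± 0.0957 in K562+L, 0.661 ± 0.121 in K562/IM and 0.680 ± 0.186 in the group labelled K562/IM+L. The lowest K562/IM library, at 0.559, was above the highest of K562 (0.536) and of K562+L (0.491), while the group labelled K562/IM+L, from 0.465 to 0.798, overlapped all 3. No test was made on the shares or ratios.

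**Figure D4:**
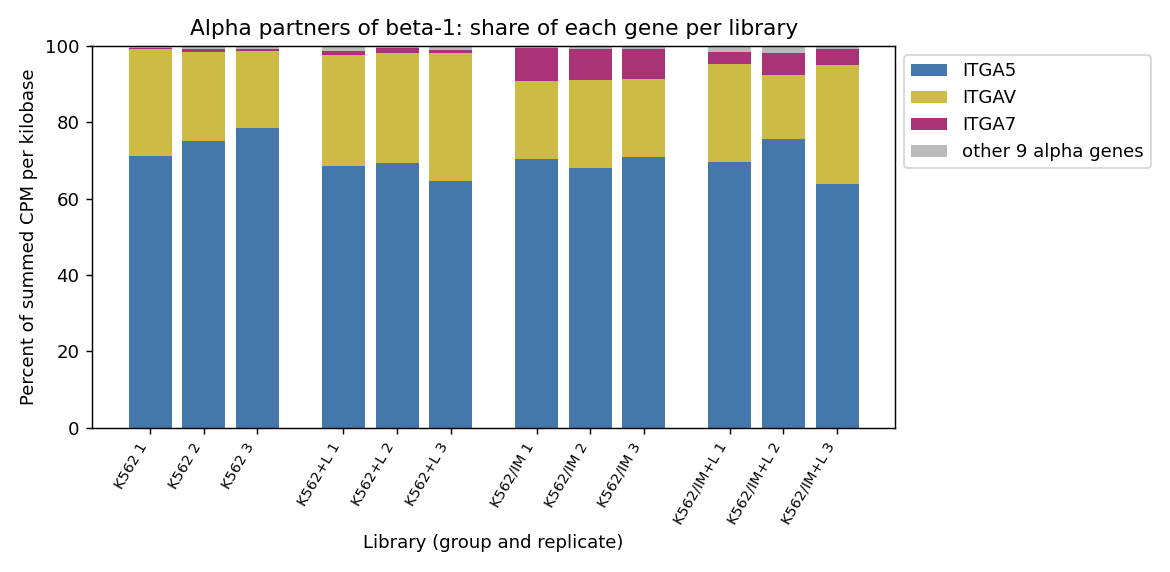
Percent of the summed CPM per kilobase of the 12 alpha genes that pair with beta-1, for each of the 12 libraries from 0 to 100%. ITGA5 is the largest share in every library, and ITGA7 is visible mainly in K562/IM and in the group labelled K562/IM+L.

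ITGA6, on chromosome 2 from 172427354 to 172506282 on the plus strand, was scarce. Its counts were 37, 16 and 32 in K562, 31, 19 and 39 in K562+L, and 24, 37 and 40 in K562/IM, and these groups overlapped. The group labelled K562/IM+L held 93, 58 and 44 counts, or 1.17, 0.809 and 0.468 CPM, all above the K562/IM libraries, whose highest was 0.385 CPM. The log2 fold change was 1.24 (SE 0.42, adjusted p = 0.0313). It no longer passed when replicate 1, 2 or 3 of K562/IM (adjusted p = 0.0995, 0.0691 and 0.0739) or replicate 1 or 2 of the group labelled K562/IM+L (adjusted p = 0.13 and 0.0635) was left out. Antisense genes overlap ITGA6, and the use of strand in the counting was not given in the sources used here.

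The leukocyte integrins were close to 0 in K562, and ITGAM and ITGAX were higher in K562/IM than in any other group. ITGAM (CD11b), on chromosome 16 from 31259967 to 31332892 on the plus strand, was 0.0982, 0.143 and 0.180 CPM in K562, from 8, 12 and 14 counts. In K562/IM it was 3.09, 2.60 and 3.37 CPM, from 258, 250 and 361 counts. No library of another group came near these values, and the next highest were replicate 3 of the group labelled K562/IM+L at 0.553 CPM and replicate 1 of K562+L at 0.543 CPM. The log2 fold change between K562/IM and K562 was 4.41 (SE 0.29, adjusted p = 1.55e-05), or 21.3-fold. Between the group labelled K562/IM+L, at 0.252, 0.433 and 0.553 CPM, and K562/IM it was -2.83 (SE 0.32, adjusted p = 0.000162). ITGAM in the group labelled K562/IM+L was above every K562 library, with a log2 fold change of 1.53 (SE 0.53, adjusted p = 0.0422). That call was lost whichever of the 6 libraries was left out, with adjusted p from 0.0539 without replicate 1 of the group labelled K562/IM+L to 0.142 without its replicate 3. It was 0.113 without its replicate 2, and 0.123, 0.114 and 0.0723 without replicates 1, 2 and 3 of K562. In K562 the lycorine effect did not pass (log2 fold change 0.91, SE 0.75, adjusted p = 0.365), and 1 library of K562+L was high while the other two were not. The lycorine effects of the lines differed by -3.77 on the log2 scale (SE 0.79, adjusted p = 0.00136).

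ITGAX (CD11c), the next alpha gene on chromosome 16, from 31355134 to 31382997 and 22241 bases from ITGAM, was also highest in K562/IM. Its counts were 0, 5 and 0 in K562, 0, 0 and 4 in K562+L, 67, 160 and 168 in K562/IM, and 0, 10 and 7 in the group labelled K562/IM+L. In CPM the K562/IM libraries were at 0.802, 1.67 and 1.57, and no library of another group exceeded 0.140. The log2 fold change between K562/IM and K562 was 5.95 (SE 0.84, adjusted p = 0.000681). It rests on 5 counts in K562, and the ratio of summed counts per library size was 67.0 with a 95% exact binomial (Clopper-Pearson) interval of 28.5 to 207, or 14.7 to 3347 if a fragment is worth 4 counts, both for counting error only. It was 9.91 without replicate 2 of K562, the K562 library that held those 5 counts. In the group labelled K562/IM+L the log2 fold change against K562/IM was -4.21 (SE 0.78, adjusted p = 0.00213). The difference between the lycorine effects, -3.73 (SE 2.12, adjusted p = 0.149), did not pass, and K562 and K562+L held only 5 and 4 counts in all. Without replicate 2 of K562 it was -7.67 with an adjusted p of 0.0413.

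Their common chain, ITGB2, had few counts in every group and did not pass the test in any comparison. ITGB2, on chromosome 21 from 44885953 to 44931989 on the minus strand, had 14, 3 and 2 counts in K562, 0, 4 and 3 in K562+L, 18, 18 and 22 in K562/IM, and 16, 3 and 19 in the group labelled K562/IM+L. The highest ITGB2 library, in K562/IM, reached 0.216 CPM. Each K562/IM library was above each K562 library, as for ITGAM and ITGAX, and the log2 fold change of 1.36 (SE 0.75, adjusted p = 0.155) did not pass. Without replicate 1 of K562, the only K562 library with more than 3 counts, it was 2.63 with an adjusted p of 0.0201. In this comparison ITGB2, like ITGAM and ITGAX, passed the filter only through the K562/IM libraries, where it is higher. Per kilobase, ITGB2 stood at 0.0638 ± 0.00449 CPM (SD, n = 3) in K562/IM, where its alpha partners ITGAL, ITGAM, ITGAX and ITGAD summed to 0.935 ± 0.112 (SD, n = 3). The beta-2 chain was the scarcer side of the pair in the RNA of K562/IM. This was not particular to K562/IM. The means were 0.0245 for ITGB2 against 0.0371 for its partners in K562, where the libraries overlapped, and 0.00786 against 0.0617 in K562+L. In the group labelled K562/IM+L they were 0.0467 against 0.131. All of these ITGB2 values rest on few counts. ITGAL (CD11a), on chromosome 16 from 30472658 to 30523185, never exceeded 7 counts and was below the filter in each comparison. An antisense gene overlaps ITGB2, with the same doubt on strand as for ITGA6.

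The genes next to ITGAM and ITGAX were mostly too low to test. Within 100000 bases on either side of the pair, 11 genes were listed and 6, these included, were tested between K562/IM and K562. ITGAM and ITGAX were the 2 called higher, and PYCARD, an inflammasome adaptor named after its values were seen, was the 1 called lower, with a log2 fold change of -4.17 (adjusted p = 0.000215). TGFB1I1, a focal adhesion gene also named after its values were seen, had a log2 fold change of 0.77 (adjusted p = 0.0588), which did not pass. ITGAD, the alpha gene just beyond ITGAX, averaged 0.0129 CPM in K562 and 0.0315 CPM in K562/IM, below the filter.

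Markers of myeloid and of other cell types moved beside the leukocyte integrins, and their part in these results was not tested. SPI1, the gene of the myeloid transcription factor PU.1, stood at 2.59 ± 0.262 CPM in K562, 4.30 ± 0.612 in K562+L, 33.7 ± 1.24 in K562/IM and 1.98 ± 0.169 in the group labelled K562/IM+L (SD, n = 3 each). Its log2 fold change was 3.70 (SE 0.11, adjusted p = 4.78e-07) between K562/IM and K562, and -4.06 (SE 0.11, adjusted p = 2.86e-07) between the group labelled K562/IM+L and K562/IM. Summed over 14 monocyte and granulocyte markers, the level was 128 to 132 CPM in K562, 123 to 144 in K562+L, 229 to 236 in K562/IM and 88.5 to 93.6 in the group labelled K562/IM+L. Of the 14 markers, 9 were tested between K562/IM and K562, with 4 called higher and 0 lower and a median log2 fold change of 1.09, beside 19.1% of all genes called and a median of 0.04. Among these calls, CSF1R and FCGR1A, named after their values were seen, were below the filter between K562+L and K562. They passed it here only with the K562/IM libraries, where they were higher, which tilts the count and the median upward. Between the group labelled K562/IM+L and K562/IM, 1 was called higher and 4 lower of 9, beside 28.5% of all genes. The 1 called higher was CEBPA, a myeloid transcription factor gene named after its values were seen, at 1.32 (SE 0.25, adjusted p = 0.00257). Of the markers of fibroblasts and epithelia, 6 were called higher and 1 lower of 10 tested between K562/IM and K562 (median on the log2 scale 2.24), and of the lymphocyte markers 2 were called higher and 0 lower of 5 (median 1.55). Among the 6, COL1A2, COL3A1, LUM and PECAM1, named after their values were seen, were below the filter between K562+L and K562. They too passed it here only with the K562/IM libraries, where they were higher, so that this count and median are tilted upward. COL1A2, a collagen gene, averaged 0.0164 CPM in K562 and 17.2 CPM in K562/IM, and CD3D, a T cell receptor chain, 2.15 and 22.0 CPM, both named after their values were seen. Erythroid markers went the other way between K562/IM and K562, with 1 called higher and 7 lower of 14 (median -1.12). Megakaryocyte markers were mixed, with 3 called higher and 2 lower of 7 tested (median 0.54). S100A8 and S100A9, abundant in mature granulocytes and monocytes, had 0 counts in all 12 libraries, and CD14, CSF1R, CEBPE, MPO, ELANE, FCGR1A and CSF3R stayed under 1 CPM in all 12. In bulk RNA a change in the number of cells with a transcript and a change in its level per cell cannot be told apart.

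ITGB7 was the one member called in opposite directions under lycorine in the lines. It lies on chromosome 12 from 53191318 to 53207307 on the minus strand. In K562 its level was 0.614, 1.13 and 1.35 CPM, and in K562+L it was 0.289, 0.358 and 0.182 CPM. All 3 K562+L libraries were below the lowest K562 library, and the log2 fold change was -1.90 (SE 0.44, adjusted p = 0.012). In K562/IM it was 0.934, 1.06 and 0.774 CPM, within the range of K562 (log2 fold change -0.16, SE 0.34, adjusted p = 0.707). The group labelled K562/IM+L held 1.67, 2.48 and 2.41 CPM, above every library of the other groups. Against K562/IM the log2 fold change was 1.27 (SE 0.25, adjusted p = 0.00287). The difference between the lycorine effects was 3.15 on the log2 scale (SE 0.50, adjusted p = 0.000196). Against K562 the log2 fold change of the group labelled K562/IM+L was 1.06 (SE 0.34, adjusted p = 0.0324). That call was lost without replicate 1 or 2 of K562 (adjusted p = 0.0539 and 0.0677) and without replicate 2 or 3 of the group labelled K562/IM+L (0.105 and 0.0751).

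The ITGB7 count may hold reads of another gene. ZNF740, a zinc finger gene on the plus strand of chromosome 12 from 53180700 to 53195141, shares 1886 exonic bases with ITGB7, out of 4481 exonic bases of ITGB7. Without a stated use of strand, reads from the shared bases cannot be assigned. ZNF740 was far more abundant in CPM, where it was 40.5 to 42.8 in K562, 31.3 to 32.4 in K562+L, 52.9 to 54.8 in K562/IM and 67.3 to 74.8 in the group labelled K562/IM+L. Its log2 fold changes were -0.39 between K562+L and K562 and 0.45 between the group labelled K562/IM+L and K562/IM, in the direction of ITGB7 but smaller. Between K562/IM and K562 it rose by 0.37 (SE 0.068, adjusted p = 0.00246), where ITGB7 did not pass. Its part in the ITGB7 values was not tested.

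Of the alpha partners of beta-7, ITGA4 never exceeded 13 counts and ITGAE moved less than ITGB7. ITGA4, on chromosome 2 from 181457202 to 181536187, had 0 counts in all K562 libraries, and in the other groups it had from 0 to 13 counts. It passed the filter only between the group labelled K562/IM+L (11, 13 and 0 counts) and K562/IM (0, 5 and 12 counts) and in the fit over 12 libraries. The groups overlapped, and the log2 fold change was 0.87 (SE 1.32, adjusted p = 0.58). ITGAE, which pairs with beta-7 and is named after its values were seen, averaged 8.23 ± 1.02 CPM (SD, n = 3) in K562 and 5.03 ± 0.411 (SD, n = 3) in K562+L, a log2 fold change of -0.71 (SE 0.14, adjusted p = 0.00739). Its log2 fold change between the group labelled K562/IM+L and K562/IM, -0.07 (SE 0.16, adjusted p = 0.699), did not pass. The difference between the lycorine effects on ITGAE was 0.62 (SE 0.22, adjusted p = 0.0286), which has the sign of that on ITGB7 and a smaller size.

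The 250 bases before the RefSeq start are shown for the genes that were called or passed the test in most comparisons, ITGAM, ITGB7 and ITGA5, to set side by side members that moved in different directions. Of the 10 members, 7 had a window, and ITGAL, ITGAX and ITGB2 had none. The ITGAM window is chr16:31259725-31259974 on the plus strand, the ITGB7 window chr12:53207252-53207501 on the minus strand and the ITGA5 window chr12:54419267-54419516 on the minus strand, all in GRCh38.p14 and written 5′ to 3′. Capitals mark matches on either strand to a core of the factor PU.1, GAGGAA, or to a core of the factor SP1, which is GGGCGG.
ITGAM: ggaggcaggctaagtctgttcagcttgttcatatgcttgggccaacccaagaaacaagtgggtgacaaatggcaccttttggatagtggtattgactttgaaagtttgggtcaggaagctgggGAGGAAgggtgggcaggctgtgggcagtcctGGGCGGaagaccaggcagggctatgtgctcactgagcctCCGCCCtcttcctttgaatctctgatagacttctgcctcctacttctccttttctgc
ITGB7: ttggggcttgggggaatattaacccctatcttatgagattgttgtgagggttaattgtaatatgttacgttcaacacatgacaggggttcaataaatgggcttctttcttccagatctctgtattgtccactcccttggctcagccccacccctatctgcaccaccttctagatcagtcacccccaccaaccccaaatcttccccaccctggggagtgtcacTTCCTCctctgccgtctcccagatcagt
ITGA5: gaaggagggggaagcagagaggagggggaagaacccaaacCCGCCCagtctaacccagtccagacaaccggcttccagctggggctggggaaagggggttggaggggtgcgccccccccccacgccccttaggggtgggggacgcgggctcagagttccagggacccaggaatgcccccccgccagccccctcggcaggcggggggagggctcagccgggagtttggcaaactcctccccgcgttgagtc
The ITGAM window held 1 PU.1 core, 127 bases before the start, and 2 SP1 cores, 96 and 57 bases before it. The ITGB7 window held 1 PU.1 core on the reverse strand, 28 bases before the start, and the ITGA5 window held 1 SP1 core on the reverse strand, 210 bases before it. These distances are to the RefSeq start, which lies inside the GENCODE span given above for each gene. Those spans begin at 31259967 for ITGAM and, on the minus strand, at 53207307 for ITGB7 and 54419460 for ITGA5. Part of each window, and most of the ITGA5 window, is therefore within the gene as GENCODE places it, and so is the ITGB7 match. The letters GATAA, a core of GATA factors, had 0 matches in these 3 windows. A motif of the AP-1 factors, TGAGTCA, likewise had 0. No match overlapped another. Among 34788 windows of the same length, 23.6% held the PU.1 core, 42.6% the SP1 core, 20.5% the GATA core and 4.21% the AP-1 motif, so that the matches are common letters and only a description.

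Beyond the members, the other integrin subunits changed most in K562/IM. Of 16 such genes, 11 were tested between K562/IM and K562, of which 5 were called higher and 1 lower, beside 19.1% of all genes, with a median log2 fold change of 1.31 against 0.04 over all genes. Among the 5, ITGA3, named after its values were seen, averaged 0.0164 CPM in K562 and 0.490 CPM in K562/IM. It passed the filter only with the K562/IM libraries, where it was higher, so that this count and median are tilted upward. ITGA2B, the platelet fibrinogen receptor chain that pairs with ITGB3, rose from 4.83 ± 0.502 to 186 ± 8.29 CPM (SD, n = 3), a log2 fold change of 5.27 (SE 0.11, adjusted p = 1.54e-07). ITGA7 rose by 4.80 (SE 0.28, adjusted p = 8.18e-06), and ITGA9, another beta-1 partner, fell by 2.21 on the log2 scale (SE 0.64, adjusted p = 0.019). The same list moved the other way between the group labelled K562/IM+L and K562/IM, with 1 called higher and 4 lower of 11 tested (median -0.92), beside 28.5% of all genes. ITGA3 was among the 4 called lower, and again passed the filter only with the K562/IM libraries. There ITGA2B fell by 3.34 (SE 0.087, adjusted p = 2.86e-07) and ITGA7 by 2.07 (SE 0.17, adjusted p = 3.55e-05), while ITGB4, the laminin receptor chain that pairs with ITGA6, rose by 1.03 (SE 0.094, adjusted p = 6.06e-05). Between K562+L and K562 the list had 0 called higher and 1 called lower of 9 tested, beside 6.39% of all genes. This was ITGA9, which fell by 2.21 (SE 0.62, adjusted p = 0.0256). Against K562, the group labelled K562/IM+L had 4 called higher and 0 lower of 9, beside 23.8% of all genes, among them ITGB4 at 2.30 (SE 0.15) and ITGA2B at 1.88 (SE 0.14).

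Integrin ligand genes were tested as 26 of 32 between K562/IM and K562. There 8 were called higher and 3 lower, beside 19.1% of all genes, and the laminin chains LAMC1 and LAMB1 led with log2 fold changes of 4.71 (SE 0.23) and 3.83 (SE 0.20). Among the 8, MADCAM1 and LAMA2, named after their values were seen, were below the filter between K562+L and K562. They passed it here only with the K562/IM libraries, where they were higher, which tilts the count upward. THBS1, a thrombospondin, and EMILIN1, an elastic fibre protein, fell by 1.99 (SE 0.13) and 1.03 (SE 0.22). In the group labelled K562/IM+L against K562/IM, 5 were called higher and 5 lower of 26, beside 28.5% of all genes. ICAM4, a red cell adhesion molecule that binds beta-2 integrins, rose from 27.7 ± 2.31 to 135 ± 17.6 CPM (SD, n = 3), beside the erythroid markers, of which 12 of 14 were called higher and 0 lower. EMILIN1 rose by 1.57 (SE 0.17), and LAMB1 and CD47 fell by 2.67 (SE 0.11) and 1.57 (SE 0.067). Between K562+L and K562, 1 was called higher and 3 lower of 24 tested, beside 6.39% of all genes. L1CAM, a neural adhesion molecule, rose by 2.27 (SE 0.64), while C3, the complement protein whose fragments bind ITGAM with ITGB2, and FBN1, a microfibril protein, fell by 2.29 (SE 0.20) and 1.93 (SE 0.37). Between the group labelled K562/IM+L and K562, 7 were called higher and 2 lower of 26, beside 23.8% of all genes, with C3 and LAMB2 higher by 1.80 (SE 0.12) and 1.40 (SE 0.097), and THBS1 and ICAM1 lower, at -2.98 (SE 0.26) and -1.21 (SE 0.10). MADCAM1 was among the 7, and passed the filter only with the group labelled K562/IM+L, where it was higher. VCAM1, the cellular ligand of ITGA4, had 0 counts in 11 of the 12 libraries.

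A list of integrin adaptors, activators and signalling partners, which also holds the galectins LGALS1 and LGALS3 that bind glycans outside the cell, was tested as 47 of 55 genes between K562/IM and K562, with 12 called higher and 3 lower. Of all genes, 19.1% were called there. LCP2 and VAV1, adaptors of haematopoietic cells, rose from 0.849 ± 0.243 to 77.1 ± 3.41 CPM and from 11.6 ± 0.663 to 46.5 ± 0.959 CPM (SD, n = 3), and PTK2B, a kinase related to focal adhesion kinase, and DAB2 fell by 1.03 (SE 0.068) and 1.76 (SE 0.28). In the group labelled K562/IM+L, 5 were called higher and 16 lower of 47 against K562/IM, beside 28.5% of all genes. LCP2 dropped from that level to 0.0374 ± 0.0352 CPM (SD, n = 3), and FYB1, its binding partner, from 55.1 ± 0.569 CPM (SD, n = 3) to 0 counts in all 3 libraries, at least 1317-fold lower at a floor of 3 counts per library. FYB1 was also at only 0.0386 ± 0.0669 CPM (SD, n = 3) in K562. It was among the 12 called higher in K562/IM, and in both comparisons it passed the filter only with the K562/IM libraries, where it was higher. TNS3, named after its values were seen, was among the 3 called lower there. It passed that filter only with the K562 libraries, where it was higher. TNS1, a tensin, and PARVB, a parvin, rose by 5.71 (SE 0.20) and 1.28 (SE 0.10). Between K562+L and K562 the list had 0 called higher and 1 lower of 46, beside 6.39% of all genes. The gene was RASGRP2, an activator of the integrin switch RAP1, which fell by 2.68 (SE 0.20). Between the group labelled K562/IM+L and K562, 6 were called higher and 5 lower of 46, a share near the 23.8% of all genes, with TNS1 and PARVB higher by 5.90 (SE 0.13) and 1.19 (SE 0.14), and FLNA and LYN lower, at -1.09 (SE 0.086) and -1.35 (SE 0.11).

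The genes whose log2 CPM followed that of ITGB1 most closely over the 12 libraries were SOGA1 (Pearson r = 0.947), OMG (r = 0.939) and USP4 (r = 0.924). For ITGB2 they were ZNF736 (r = 0.948), PAIP2B (r = 0.918) and FBXL5 (r = 0.906). These are descriptions over 12 libraries that share 4 groups, and the ITGB2 values rest on 0 to 22 counts per library.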

How the data were processed

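Messenger RNA was measured in 12 libraries of 4 groups, and libraries were grouped by the treatment in their labels. The authors deposited whole-number counts per gene symbol and library, without normalization. The submitters' processing notes name FastQC, STAR, StringTie, DESeq2 and the build hg38, with no roles or versions, and the strand setting of the counting is not given in the sources used here. All 12 count columns were used. Positions and transcript lengths came from GENCODE release 29 (GRCh38), which matched 19029 of 19447 symbols, and promoter windows came from RefSeq (GRCh38.p14).

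Low-count genes were removed by filterByExpr at a minimum count of 10, TMM factors were computed, and groups were compared pairwise with edgeR 4.0.16 (R 4.3.3, limma 3.58.1), using the quasi-likelihood test with Benjamini-Hochberg adjustment over all genes tested. A gene passed the test at an adjusted p under 0.05 and was called when its absolute log2 fold change was also over 1. A gene near 0 in a group could pass the filter only through the group it was compared with. Such genes tilt the counts and medians of each list toward higher values in that group. The difference between the lycorine effects (K562/IM+L minus K562/IM, minus K562+L minus K562) was tested over 12 libraries at an adjusted p under 0.05. The standard error was the log2 fold change divided by the root of the F statistic. Tables were made with Python 3.11.15, pandas 2.3.3 and numpy 2.4.6.

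On simulated counts the pairwise step recovered 172 of 200 genes changed by a log2 fold of 1.5 for K562/IM vs K562, with 7 false calls among 13205 genes. The interaction step recovered 164 of 200 with 9 false calls among 13735 genes. All members are named. From each list of other integrin genes, up to 2 genes in each direction with the smallest p past both thresholds and with no overlap between groups are named, besides those said to be named after their values were seen. The members and lists were chosen with earlier results of these data known. Alternatives were DESeq2 1.42.0, upper-quartile scaling, other count filters, no fold threshold, counts divided by 4, 1 fit of all 12 libraries, a block for the replicate number, leaving out each library in turn, another transcript length and, added after the data were seen, an offset over 8 bins of transcript length. With 3 libraries a group an exact test cannot give a p under 0.1, and the labels give no batch or date.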

Additional observations from a re-analysis of the deposited data

Results flagged for a closer look

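The lycorine effect differed between K562/IM, as labelled, and K562 for 5 members by edgeR's interaction test over 12 libraries. For each the value is the log2 fold change in K562/IM minus that in K562. ITGB7 differed by 3.15, with a fall in K562 and a rise in K562/IM, each higher or lower in 3 of 3 libraries than every untreated library. ITGAM differed by -3.77, and only its fall in K562/IM passed the test. ITGB1 differed by -1.20 and ITGAV by -0.91, and neither passed the test in K562. The ITGAV difference was lost with 9 of the 12 libraries left out in turn, under upper-quartile scaling (adjusted p = 0.0652) and with the transcript-length offset (-0.24, adjusted p = 0.415). ITGA5 differed by -0.67, with a fall in both lines. These differences rest on the label of the libraries called K562/IM+L, and 61.7% of 13995 genes passed the same test.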

How the results depend on the processing

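With no fold threshold the calls were 4821 genes and 2 members for K562+L vs K562, 7661 genes and 5 members for K562/IM vs K562, 9169 genes for K562/IM+L vs K562/IM, and 7446 genes for K562/IM+L vs K562. Where at least 10 counts were asked of every library, 0 members were called for K562/IM vs K562, since the filter removes ITGAM and ITGAX, which were not tested there, and 1 for K562/IM+L vs K562. The latter count was also 1 with no low-count filter and with counts divided by 4. ITGB1 in K562/IM vs K562 was 0.55 (adjusted p = 0.0968) and ITGA6 in K562/IM+L vs K562 was 1.21 (adjusted p = 0.0411) in 1 fit of all libraries. ITGAM in K562/IM+L vs K562 was 1.52 (adjusted p = 0.0979) with no low-count filter. Upper-quartile scaling moved the median of all genes in K562/IM+L vs K562 by 0.15, where ITGA5 was -0.25 (adjusted p = 0.0505), and under it ITGAV in the difference between the lycorine effects was -0.78 (adjusted p = 0.0652). The transcript-length offset gave ITGAV -0.32 (adjusted p = 0.0151) in K562+L vs K562, -0.52 (0.0514) in K562/IM+L vs K562/IM and -0.24 (0.415) in the difference between effects, where ITGA6 was 1.81 (0.0354). ITGA6 in K562/IM vs K562, whose value is near 0, changed sign with upper-quartile scaling (0.034), the stricter filter (0.0093) and the replicate block (0.053).

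Deviations from the group means of same-numbered libraries correlated at -0.23 to 0.15, and those of differently numbered libraries at -0.17 to 0.225. The replicate numbers therefore gave no sign of pairing. With 3 libraries per group these values cannot tell whether libraries shared a culture or a preparation. With the replicate block ITGA6 in K562/IM+L vs K562/IM was 1.16 (adjusted p = 0.0991), and in K562/IM+L vs K562 ITGAM was 1.499 (adjusted p = 0.106), ITGB1 was -0.67 (adjusted p = 0.0391) and 1 member was called. With this block the counts of genes called were 735, 2433, 3807 and 2913 in the 4 comparisons, each within 1.5 times of those without it. It changed no other call of a member.

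With 1 library left out, members called in K562/IM+L vs K562 ranged from 0 to 3. In K562+L vs K562, ITGA6 ranged from -0.45 to 0.068, ITGAM from -0.13 to 1.31, ITGAV from -0.11 to 0.14 and ITGB1 from -0.054 to 0.24. In K562/IM vs K562, ITGA6 ranged from -0.31 to 0.18, ITGB2 from 0.95 to 2.63 and ITGB7 from -0.46 to 0.065. In K562/IM+L vs K562/IM, ITGA6 ranged from 0.89 to 1.53, ITGAV from -1.24 to -0.63 and ITGB2 from -0.69 to 0.020. In K562/IM+L vs K562, ITGA6 ranged from 0.82 to 1.48, ITGAM from 1.27 to 1.77, ITGAV from -0.53 to 0.067, ITGB1 from -1.02 to -0.39 and ITGB7 from 0.80 to 1.30. In the difference between the lycorine effects, ITGA4 ranged from -4.65 to 0.90, ITGA6 from 1.02 to 1.67, ITGAV from -1.24 to -0.67, ITGAX from -7.67 to -0.32 and ITGB2 from -0.14 to 1.82. Of the 360 values with a library left out, 305 kept their direction and their side of the threshold, or stayed within 1.5 times for counts.

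With the mean coding transcript length, the level per kilobase of ITGB1 was 164, 173, 241 and 111 CPM in that order of groups (K562, K562+L, K562/IM, then the one labelled K562/IM+L), that of ITGA5 was 33.9, 23.6, 59.6 and 26.05, and that of ITGAV was 9.91, 9.76, 16.7 and 8.70, while the ITGA5 share in K562/IM was 72.3%. The order of these genes was the same. The cause of these shifts was not tested except where a filter or fewer libraries is named. Low counts limit ITGA4, ITGAL, ITGB2, ITGAX and ITGA6, for which a miss of the threshold does not show that levels were alike.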
